A study of Homo sapiens with 15 samples.

Results

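TRIB1, TRIB2 and TRIB3 encode the Tribbles pseudokinases, and these 3 genes, found by their Ensembl identifiers, were followed among the 60670 genes of the count table. The cells were HT-1080, an established human fibrosarcoma line, and messenger RNA was sequenced in 5 groups of 3 libraries that the labels call biological replicates. Cycling cells received the vehicle DMSO and carry a 6 h label. Senescent cells had expressed a dominant negative mutant of the telomere protein TRF2 for 6 days, which uncaps telomeres, and then received either DMSO for 6 h, 1 uM of the tyrosine kinase inhibitor GNF-7 for 6 h, DMSO for 24 h or 1 uM GNF-7 for 24 h. All groups share the 1 cell line, so every comparison describes that line, and cycling cells exposed to GNF-7 were not analysed here. The series' title links GNF-7 to activation of GCN2, a kinase that senses amino acid shortage.

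Tribbles proteins have the fold of a protein kinase but little or no catalytic activity, and act as scaffolds. TRIB1 and TRIB2 recruit the ubiquitin ligase COP1 to proteins such as the transcription factor C/EBP alpha, which is then degraded, and Tribbles proteins also bind MEK1 and AKT kinases. TRIB3 is a well known target of the transcription factors ATF4 and CHOP (gene DDIT3), which are made when GCN2 or a related kinase phosphorylates the translation factor eIF2. TRIB3 protein can in turn bind ATF4 and CHOP and dampen their activity.

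Promoter window sequence is shown for TRIB2 and TRIB3, the members held by the RefSeq promoter table (GRCh38.p14), because these genes moved in opposite directions in senescence and after 6 h of GNF-7. The stretches are bases of those windows that lie directly before an annotated transcript start and that no annotated exon of the gene covers, with each match to the GC box GGGCGG, on either strand, in capitals. The TRIB3 stretch is chr20:381170-381245 and the TRIB2 stretch chr2:12716686-12716888, both on the plus strand. The TRIB2 stretch precedes the whole annotated gene, whereas the TRIB3 stretch lies inside the annotated gene, before an internal start, since other TRIB3 transcripts start further upstream.
TRIB3: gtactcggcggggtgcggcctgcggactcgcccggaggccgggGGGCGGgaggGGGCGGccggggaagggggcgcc
TRIB2: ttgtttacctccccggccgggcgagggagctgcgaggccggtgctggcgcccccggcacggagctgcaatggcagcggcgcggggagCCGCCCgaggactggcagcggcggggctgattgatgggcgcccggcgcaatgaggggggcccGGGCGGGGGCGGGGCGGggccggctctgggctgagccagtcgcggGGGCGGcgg
Both are rich in G and C, with 85.5% over 76 bases in TRIB3 and 79.8% over 203 bases in TRIB2, and hold 2 and 5 GC boxes, some of which adjoin or overlap in TRIB2. Of 35116 promoter windows of 300 bases in the table, 45.0% hold a GC box. The letters TGATGNAA, the core of the composite element that ATF4 binds with a C/EBP partner, were searched on both strands and are in 3.62% of the windows. No match was found in the 3 windows of TRIB3 or the 1 of TRIB2, which says only that these letters are not in those windows. Among the 24 ATF4 target genes listed for comparison, 6 of the 20 present in the table had a match in at least 1 window. Counted in the same way over the whole table, 1217 of 27305 genes had a match. The listed genes were picked as ATF4 targets with earlier results of these data known, so these counts do not test the element. CHAC1, a gene whose level followed that of TRIB3 closely, is printed with its match in capitals from chr15:40953251-40953280 on the plus strand. This stretch is part of the RefSeq promoter window, and it lies within the first exon of the CHAC1 transcripts that GENCODE starts further upstream.
CHAC1: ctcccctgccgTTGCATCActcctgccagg

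Library totals ranged from 25991007 to 32323393 counts, and the members held between 343 and 10307 counts in each library. Levels are given in CPM, which are counts scaled to one library size for all libraries, after TMM correction of the sizes for composition. TERF2, the gene of TRF2, was higher in senescent vehicle than in cycling libraries by 2.30 on the log2 scale (SE 0.044, edgeR adjusted p 1.79e-48), which checks the labels, although the counts do not separate mutant from endogenous transcript. TERF2 was not level among the senescent groups. It differed by -0.37 with GNF-7 at 6 h, by -0.73 at 24 h and by -0.39 in vehicle at 24 h against 6 h. The part of these TERF2 differences in the results was not tested. The 6 mesenchymal markers examined were present in every library, with VIM at 3363 to 4276 CPM, whereas the 6 blood and 4 endothelial markers summed to at most 1.04 and 2.35 CPM. Of the 6 epithelial markers, the keratins KRT8 and KRT18 were present at 145 to 285 and 141 to 438 CPM, EPCAM, CDH1 and KRT19 were at most 0.542 CPM and CLDN4 at most 2.25 CPM. The epithelial sum was 712 to 724 CPM in cycling libraries and 290 to 462 CPM in senescent libraries, and its part in the results was not tested. Mitochondrial genes took 4.32 ± 0.637% of counts in cycling cells (SD, n = 3), 11.7 ± 0.638% and 16.9 ± 1.80% in senescent vehicle cells at 6 h and 24 h, and 14.1 ± 1.08% and 23.3 ± 0.767% in GNF-7 cells. With mitochondrial genes left out before scaling, each of the 21 member results below kept its direction and its call.

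All 3 genes are protein coding and lie on the plus strand of GRCh38 (GENCODE release 29). TRIB1 (ENSG00000173334) spans chromosome 8, 125430321 to 125438405. TRIB2 (ENSG00000071575) spans chromosome 2, 12716889 to 12742734, and holds the microRNA gene MIR3125 within its body. TRIB3 (ENSG00000101255) spans chromosome 20, 362835 to 397559. TRIB1 and TRIB3 overlap no other annotated gene. Each has 4 annotated transcripts, and the deposited counts do not separate them.

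TRIB3 was the most abundant member in every group when levels were compared per kilobase of exon. It stood at 21.5 ± 0.442 CPM per kilobase in cycling cells (SD, n = 3), against 4.42 ± 0.151 for TRIB1 and 3.20 ± 0.177 for TRIB2. The lowest TRIB3 group, senescent vehicle cells at 24 h, was at 10.5 ± 0.441 CPM per kilobase, where TRIB1 was at 4.96 ± 0.407 and TRIB2 at 5.66 ± 0.185. After 24 h of GNF-7 TRIB3 reached 95.6 ± 3.64 CPM per kilobase, with TRIB1 at 5.53 ± 0.192 and TRIB2 at 5.70 ± 0.168. TRIB1 and TRIB2 thus stayed between 2.68 and 6.14 CPM per kilobase in their group means, a far narrower range than that of TRIB3.

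**Figure D1:**
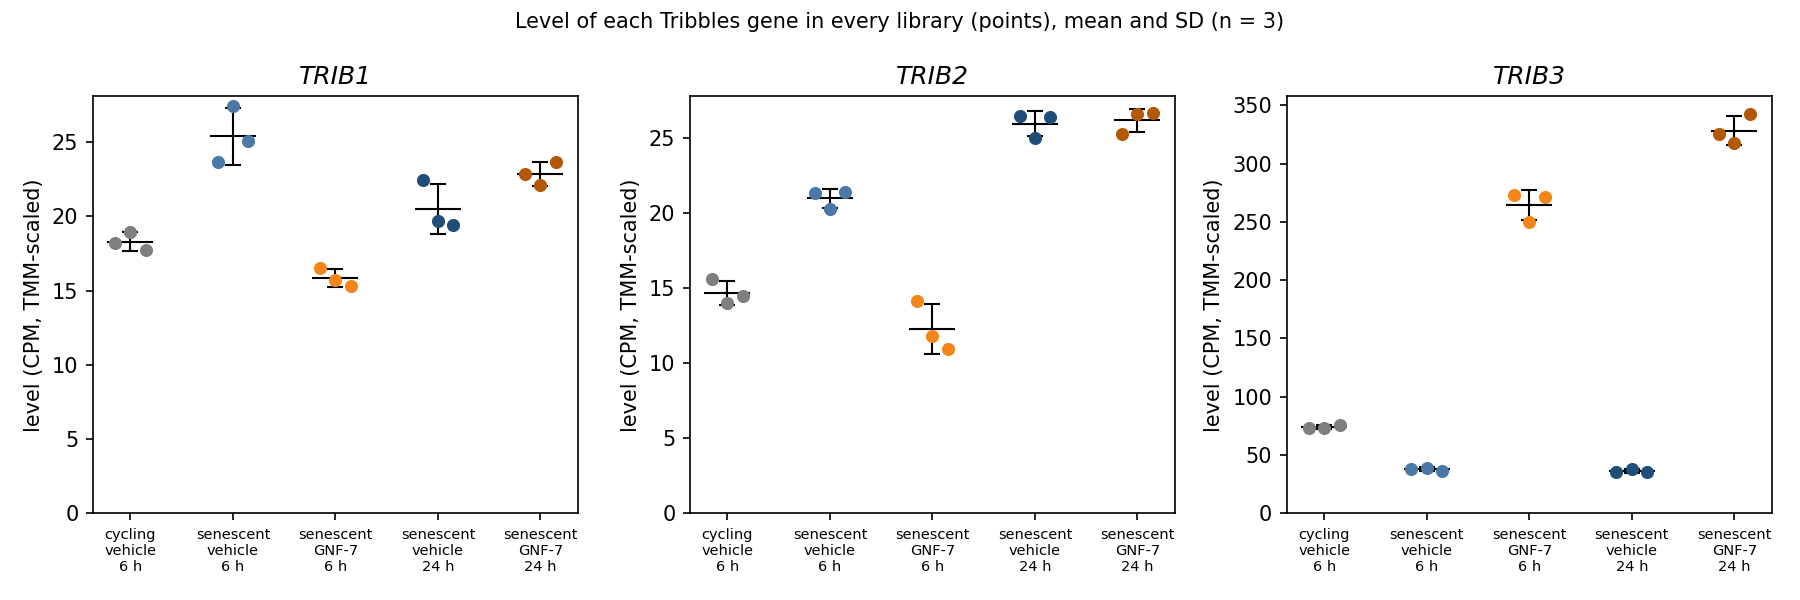
Level of TRIB1, TRIB2 and TRIB3 in CPM (y axis, a separate scale for each gene) in the 5 groups (x axis), with 1 point per library and bars for the mean and SD of 3 libraries. TRIB3 lies at 250 to 342 CPM in the 6 GNF-7 libraries and at 34.9 to 75.6 CPM in the 9 vehicle libraries, whereas TRIB1 and TRIB2 are lowest after 6 h of GNF-7 and are back among the senescent vehicle levels at 24 h.

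Senescence was read first, from the senescent and the cycling libraries given vehicle and labelled 6 h. Senescent cells held less TRIB3 and more TRIB1 and TRIB2 transcript. All 3 members were called, at an edgeR adjusted p under 0.05, in a comparison where 70% of all 18563 genes tested were called in either direction, 35.6% higher and 34.4% lower. A library averages over its cells, so fewer expressing cells and less transcript per cell cannot be told apart.

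TRIB3 was at 73.4, 72.7 and 75.6 CPM in the cycling libraries and at 38.2, 39.0 and 36.4 CPM in the senescent vehicle libraries at 6 h. Every senescent library was below every cycling library, and the groups did not overlap in 71.5% of all genes tested. The log2 fold change was -0.96 (SE 0.047, edgeR adjusted p 1.62e-27), to 0.513 of the cycling level, and 8.64% of genes had a lower value.

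TRIB1 was at 18.2, 19.0 and 17.7 CPM in cycling cells and at 23.7, 27.5 and 25.1 CPM in senescent cells. The groups did not overlap, and senescent replicate 2 was the highest TRIB1 library of the series. Its log2 fold change was 0.47 (SE 0.076, edgeR adjusted p 1.46e-07), a 1.39-fold rise. TRIB2 was at 15.6, 14.0 and 14.5 CPM in cycling cells and at 21.3, 20.2 and 21.4 CPM in senescent cells, again without overlap. It rose by 0.52 (SE 0.081, adjusted p 7.72e-08), or 1.43-fold. Scaling by total counts alone or filtering at a mean of 5 CPM shifted the log2 fold changes of all genes in this comparison by 0.13 and 0.15, and the members kept their directions under both.

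The genes listed as stress inputs to TRIB3 were split in senescence, and their control of TRIB3 was not tested. Of 10 stress input genes, which comprise the 4 eIF2 kinases and the transcription factors of the pathway, 5 were higher and 5 lower. Over all genes tested, the shares were 35.6% higher and 34.4% lower. ATF4, which activates TRIB3, was lower by -0.84 (SE 0.036, edgeR adjusted p 2.07e-30). DDIT3, which encodes CHOP and overlaps other genes on both strands, was higher by 1.19 (SE 0.066). EIF2AK4, the gene of GCN2, was lower by -0.27. Of 23 ATF4 target genes tested, 17 were lower and 5 higher, with a median log2 fold change of -0.70 against 0.06 over all genes. TRIB3 lay below 15 and above 8 of these 23. PSAT1 and SLC7A5, for serine synthesis and leucine import, fell further (-1.98 and -1.53), whereas GDF15, a secreted stress hormone, rose by 2.39.

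Most COP1 ligase, COP1 substrate and kinase partner genes were lower in senescent cells. Among all genes tested, 34.4% were lower and 35.6% higher. Of 8 genes of the COP1 ligase and its relatives, 5 were lower and 1 higher (1 or 2 over the alternatives). COP1 itself was lower by -0.36 (SE 0.064, edgeR adjusted p 1.61e-06), RBX1, the RING subunit of cullin ligases, by -0.77, and STK40, a pseudokinase related to the Tribbles proteins, by -0.61. Of 9 genes for COP1 substrates, 8 were lower and 1 higher. The higher gene, CEBPB at 0.97, is also counted among the stress input genes. ETV4 and ETV5, transcription factors that COP1 marks for degradation, had log2 fold changes of -2.37 and -1.01, and ACACA, the enzyme that starts fatty acid synthesis, of -0.83. Of 7 kinase partner genes, 5 were lower, with AKT1 at -0.64, and 1 was higher, a number that ranged from 0 to 2 over the alternatives. Of 14 FOXO genes, which comprise FOXO factors, restrained by AKT, and genes they activate, 11 were higher and 2 lower (1 or 2 over the alternatives), with TXNIP at 1.73 and CITED2 at 1.45. This list holds INSR, which was barely detected, at 0 CPM in cycling and at most 0.284 CPM in senescent vehicle libraries at 6 h. Of 13 ERK output genes tested, which are induced downstream of MEK, 7 were lower and 3 higher, with SPRY4 at -1.22 and IER3 at 0.72.

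Treatment was read next, from GNF-7 and vehicle libraries of senescent cells at 6 h. TRIB3 rose and TRIB1 and TRIB2 fell, each the reverse of its direction in senescence. The senescent vehicle libraries at 6 h enter both comparisons, so the opposite signs are not independent of each other. Among all genes 39.3% were called in either direction, 17.9% higher and 21.4% lower.

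TRIB3 was at 273, 250 and 272 CPM after 6 h of GNF-7, against 38.2, 39.0 and 36.4 CPM in vehicle. The lowest treated library was thus far above the highest vehicle library. The log2 fold change was 2.80 (SE 0.045, edgeR adjusted p 1.27e-51), a 6.99-fold rise. TRIB3 had the smallest p of all 18563 genes and ranked 58 by the size of its rise.

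TRIB1 was at 16.5, 15.7 and 15.3 CPM after GNF-7 and at 23.7, 27.5 and 25.1 CPM in vehicle. TRIB2 was at 14.1, 11.8 and 10.9 CPM after GNF-7 and at 21.3, 20.2 and 21.4 CPM in vehicle. In both genes every treated library was below every vehicle library, and 47.7% of all genes showed no overlap in this comparison. TRIB1 fell by 0.68 on the log2 scale (SE 0.077, edgeR adjusted p 3.43e-11), to 0.623 of the vehicle level. TRIB2 fell by 0.77 (SE 0.082, adjusted p 5.07e-12), to 0.586 of the vehicle level. Both are among the larger falls at 6 h, since 3.15% of genes had a lower log2 fold change than TRIB1 and 2.31% a lower one than TRIB2.

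Set against cycling cells, GNF-7 at 6 h left TRIB3 higher by 1.84 (SE 0.042, edgeR adjusted p 1.52e-44), or 3.58-fold, where 75.7% of all genes were called, 39.6% higher and 36.1% lower. TRIB1 was lower than in cycling cells by -0.21 (SE 0.079, adjusted p 0.0157) and TRIB2 by -0.25 (SE 0.085, adjusted p 0.00628). The TRIB2 libraries of these groups overlapped, unlike those of TRIB1, TRIB3 and 76.6% of all genes, since GNF-7 replicate 1 at 14.1 CPM lay between the cycling libraries. Both calls were lost when libraries were scaled by total counts (-0.063 and -0.11), when genes were filtered at a mean of 5 CPM (-0.0045 and -0.051) and when replicate 3 of GNF-7 at 6 h was left out (-0.19 and -0.18). The TRIB1 call was also lost without cycling replicate 2 (-0.19) and in a fit of only these groups (-0.17).

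**Figure D2:**
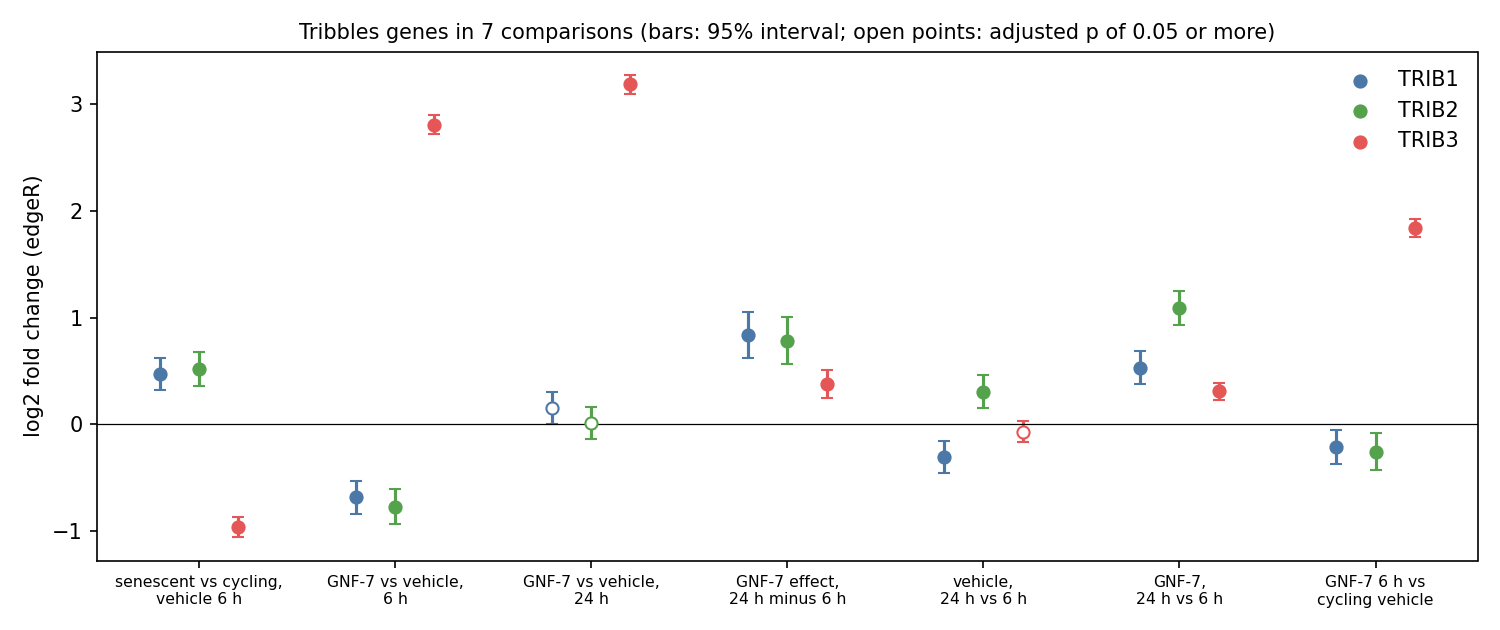
Log2 fold changes of TRIB1, TRIB2 and TRIB3 (y axis) in 7 comparisons (x axis), with 95% intervals from the edgeR fit and open points where the adjusted p was 0.05 or more. TRIB3 lies apart from the other members at 2.80 and 3.18 for GNF-7 at 6 h and 24 h and at -0.96 in senescence.

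ATF4 and its targets rose with TRIB3 at 6 h, where 17.9% of all genes tested were higher and 21.4% lower. Of the 10 stress input genes 6 were higher and 1 lower (1 or 2 over the alternatives), and the median was 1.33 against 0.01 over all genes. DDIT3 rose by 2.72 (SE 0.051, edgeR adjusted p 1.85e-48), CEBPG, which encodes a binding partner of ATF4, by 2.03 and ATF4 by 1.25. EIF2AK4 was at -0.03 (SE 0.043, adjusted p 0.657), and its sign changed under another filter on low genes. All 23 ATF4 target genes tested were higher (21 to 23 over the alternatives), with a median of 1.58. ADM2, CHAC1 and ASNS, named because they alone lay above TRIB3 in this list, rose by 3.47, 3.41 and 3.00, and PSAT1, SLC7A5 and AARS1 had the smallest p, at 2.42, 2.14 and 1.58.

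The lists of genes around TRIB1 and TRIB2 had smaller median changes at 6 h. Their counts stand beside 17.9% higher and 21.4% lower among all genes tested. COP1 was at 0.10 on the log2 scale (SE 0.064, edgeR adjusted p 0.229). In its list 3 genes were lower (2 or 3 over the alternatives), including RBX1 at -0.42 and DDA1 at -0.36, and 1 was higher (0 to 3). Of the COP1 substrates 4 were higher and 1 lower, with a median of 0.22. Single genes ranged from -0.74 to 1.51, the latter for CEBPB, which is also a stress input gene. ETS2 rose by 0.87 and ETV5 by 0.68, whereas JUN, an AP-1 subunit and immediate early gene, fell by 0.74. Of the 7 kinase partner genes 6 were lower, but by little, with a median of -0.21 and MAP2K1, the gene of MEK1, at -0.21 (SE 0.042, adjusted p 2.94e-05). Of the ERK output genes 5 were lower and 2 higher (1 to 4 over the alternatives), with CCND1, the G1 cyclin D1, at -0.47 and DUSP5, a phosphatase that acts on ERK, at 0.76. Of the FOXO genes 5 were higher and 4 lower, or 9 and 2 when genes were filtered at a mean of 5 CPM. BCL2L11, a death-promoting FOXO target, rose by 1.18 and FOXO1 by 1.05.

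The same contrast was then made after 24 h, where 58.9% of all genes were called, 29.3% higher and 29.7% lower. TRIB3 alone of the 3 members was called. TRIB3 was at 325, 318 and 342 CPM with GNF-7 and at 35.6, 37.8 and 34.9 CPM in vehicle, without overlap, as in 63.2% of all genes. The log2 fold change was 3.18 (SE 0.046, edgeR adjusted p 8.30e-55), a 9.08-fold rise. It ranked 2 by p and 122 by the size of its rise.

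TRIB1 was at 22.8, 22.1 and 23.7 CPM with GNF-7 and at 22.5, 19.7 and 19.4 CPM in vehicle at 24 h. Vehicle replicate 1 overlapped the treated libraries. The log2 fold change was 0.15 (95% interval 0.002 to 0.31, edgeR adjusted p 0.0759). It was called when replicate 1 of vehicle at 24 h was left out (0.22), with total counts (0.18) and when genes were filtered at a mean of 5 CPM (0.25). TRIB2 was at 25.3, 26.6 and 26.7 CPM with GNF-7 and at 26.5, 25.0 and 26.4 CPM in vehicle, and the groups overlapped. Its log2 fold change of 0.01 (95% interval -0.14 to 0.16, adjusted p 0.897) had either sign over the alternatives. These intervals do not hold the falls of 0.68 and 0.77 seen at 6 h.

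The list counts at 24 h stand beside 29.3% higher and 29.7% lower among all genes tested. Of the stress input genes 6 were higher at 24 h and 2 lower (1 to 3 over the alternatives). DDIT3 was higher by 3.02, ATF4 by 1.67 and NUPR1, a stress-induced chromatin protein and ATF4 target, by 3.79. All 23 ATF4 target genes tested were again higher, with a median of 1.67 against 0.04 over all genes. PSAT1 rose by 3.12, PHGDH, the first enzyme of serine synthesis, by 2.99 and WARS1, the tryptophanyl-tRNA synthetase, by 2.43. TRIB3 again had 3 of the list above it. COP1 was lower by -0.20 (SE 0.066, edgeR adjusted p 0.00692), with 5 of its list lower and 2 higher (0 to 3 over the alternatives), among them CUL4B at -0.65, RBX1 at -0.72 and DDB1 at -0.45. Of the COP1 substrates 5 were higher and 3 lower, with ETV5 at 1.39, ETV4 at 0.97 and ACACA at -0.44. Of the kinase partner genes 3 were lower (1 to 3 over the alternatives), led by AKT2 at -0.28. The ERK output genes had 6 lower and 2 higher (4 to 6 and 2 to 5 over the alternatives), with CCND1 at -0.99 and SPRY4 at 0.76. The FOXO genes had 7 in each direction, with IRS2, an insulin receptor substrate, at 1.38 and CITED2 at -0.55. The higher FOXO genes include the barely detected INSR, at a mean of 0.05 CPM in vehicle and 0.63 CPM with GNF-7.

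**Figure D3:**
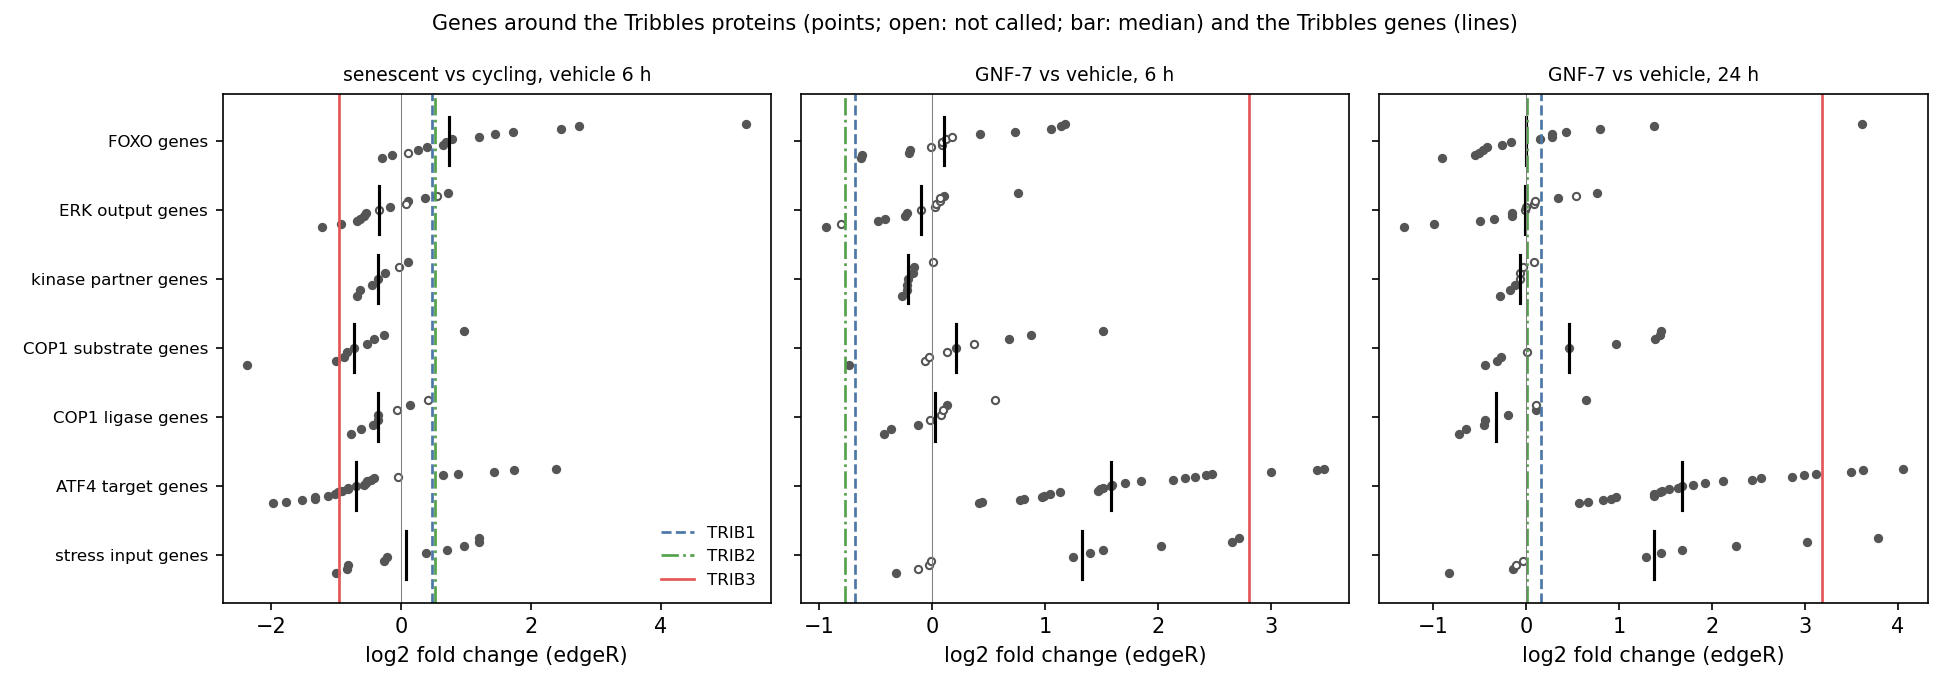
Log2 fold changes (x axis) of the genes of 7 lists (y axis, 1 point per gene, open where not called, black bar at the list median) in 3 comparisons, with vertical lines at the values of TRIB1, TRIB2 and TRIB3. The TRIB3 line lies among the upper ATF4 target genes at 2.80 and 3.18 after GNF-7, and the TRIB1 and TRIB2 lines lie at -0.68 and -0.77 at 6 h.

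An interaction term compared the responses to GNF-7 at the 24 h and 6 h times. All 3 members were called with a higher log2 fold change at 24 h, where 12.8% of all genes were called in that direction, 18% in the other and 30.8% in either. The difference was 0.84 for TRIB1 (SE 0.11, edgeR adjusted p 3.36e-09), 0.78 for TRIB2 (SE 0.11, adjusted p 4.09e-08) and 0.38 for TRIB3 (SE 0.063, adjusted p 1.84e-06). For TRIB1 and TRIB2 this took a fall at 6 h to values that were not called at 24 h, and for TRIB3 it added to a rise. Of the 23 ATF4 target genes, 11 had a larger effect at 24 h and 2 a smaller one (1 to 3 over the alternatives), with a median difference of 0.20, and TRIB3 lay below 9 and above 14 of them.

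The treated and the vehicle arms were then read apart. Between the vehicle groups, where 18.5% of all genes were called, 9.26% higher and 9.29% lower, TRIB1 was lower at 24 h than at 6 h by -0.31 (SE 0.075, edgeR adjusted p 0.00183) and TRIB2 higher by 0.31 (SE 0.077, adjusted p 0.00218), with no overlap between the libraries of either gene, as in 32.9% of all genes. TRIB3 had a log2 fold change of -0.07 (95% interval -0.17 to 0.03, adjusted p 0.401) but was called with total counts (-0.18), which shifted the log2 fold changes of all genes by -0.11. Between the GNF-7 groups, where 47.8% of genes were called, 23.1% higher and 24.7% lower, all 3 members were higher at 24 h. Their libraries did not overlap, as in 54.4% of all genes. TRIB2 rose most, by 1.09 (SE 0.080, adjusted p 2.55e-18) or 2.13-fold, TRIB1 by 0.53 (SE 0.077, adjusted p 3.51e-08) and TRIB3 by 0.31 (SE 0.039, adjusted p 6.24e-10). TRIB1 and TRIB2, which moved alike in senescence and at 6 h of GNF-7, thus moved apart in vehicle over time.

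The order of the groups differed between the genes. TRIB3 rose from senescent vehicle cells at 24 h (36.1 ± 1.51 CPM, SD, n = 3) through those at 6 h (37.9 ± 1.37) and cycling cells (73.9 ± 1.52) to GNF-7 at 6 h (265 ± 12.9) and at 24 h (328 ± 12.5), and only the first and second overlapped. TRIB1 rose from GNF-7 at 6 h (15.8 ± 0.594) through cycling cells (18.3 ± 0.626), vehicle at 24 h (20.5 ± 1.68) and GNF-7 at 24 h (22.9 ± 0.795) to vehicle at 6 h (25.4 ± 1.92), with overlap between vehicle and GNF-7 at 24 h alone among neighbours. TRIB2 rose from GNF-7 at 6 h (12.3 ± 1.66) through cycling cells (14.7 ± 0.814) and vehicle at 6 h (21.0 ± 0.638) to vehicle (25.9 ± 0.848) and GNF-7 (26.2 ± 0.770) at 24 h, and the first and last pairs of neighbours overlapped. Cycling cells were therefore in the middle for TRIB3 and next to the lowest for TRIB1 and TRIB2.

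The make-up of the family was read as each member's share of the reads per kilobase summed over the 3 genes, a quantity that does not depend on library scaling. TRIB3 made up 73.3, 73.5 and 74.8% in the cycling libraries and 51.8, 50.7 and 49.7% in senescent vehicle libraries at 6 h. After 6 h of GNF-7 it made up 91.8, 92.0 and 92.9%, and after 24 h 89.6, 89.3 and 89.6%, against 48.1, 51.9 and 49.3% in vehicle at 24 h. The share was thus about even with that of the other members together in senescent vehicle cells and took nearly all of the sum after GNF-7. It differed by -23.1 percentage points in senescence, by 41.5 points with GNF-7 at 6 h and by 39.7 points at 24 h. In each of these 3 comparisons the libraries did not overlap, and an exact two-sided permutation test gave p = 0.1 (0.1 after adjustment over the 3), the lowest value this permutation test can give with 3 against 3 libraries. Summed over the family, the level was 29.1 ± 0.325 CPM per kilobase in cycling cells (SD, n = 3), 21.7 ± 0.594 and 21.1 ± 0.481 in senescent vehicle cells at 6 h and 24 h, and 83.6 ± 3.93 and 107 ± 3.88 after GNF-7. Between the other members, TRIB1 exceeded TRIB2 per kilobase by 1.23 to 1.56 times in all 9 libraries labelled 6 h. The ratio was 0.816 to 1.00 in the 6 libraries at 24 h. It uses exon unions of 4138 bases for TRIB1 and 4588 for TRIB2. With the longest transcripts, of 3635 and 4391 bases, every ratio would be higher, so its side of 1 in some 24 h libraries depends on the length used.

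**Figure D4:**
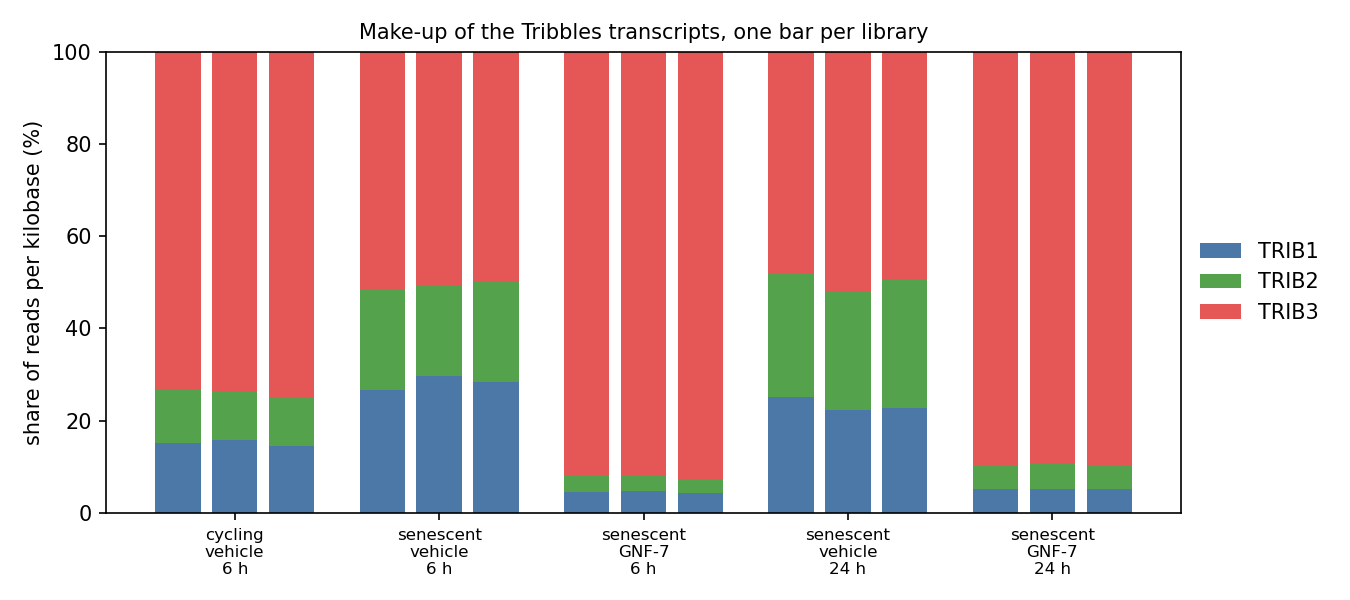
Share of TRIB1, TRIB2 and TRIB3 in the reads per kilobase of exon summed over the 3 genes (y axis, percent), with 1 stacked bar per library in the 5 groups (x axis). TRIB3 takes 48.1 to 51.9% in senescent vehicle libraries, 73.3 to 74.8% in cycling libraries and 89.3 to 92.9% in GNF-7 libraries.

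The genes whose levels were most like each member were found by the Pearson correlation of log2 CPM over the 15 libraries, among 11216 genes with a symbol and a mean of at least 5 CPM. These libraries fall into treatment groups, so the values describe shared group differences. The closest to TRIB3 were SLC6A9 (0.997), CHAC1 (0.995), CARS1 (0.994), ALDH1L2 (0.994) and SLC7A11 (0.993). SLC6A9 and SLC7A11 import glycine and cystine, CHAC1 degrades glutathione, CARS1 is the cysteinyl-tRNA synthetase and ALDH1L2 a mitochondrial folate enzyme. SLC6A9 was at 18.6 ± 0.619 CPM in cycling cells, 11.98 ± 0.738 and 10.6 ± 0.745 in senescent vehicle cells at 6 h and 24 h, and 68.5 ± 1.94 and 78.8 ± 2.69 after GNF-7 (SD, n = 3), the same order of groups as TRIB3.

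Among the closest to TRIB2 were PHF1 (0.965), TSC22D4 (0.942), SMO (0.941) and MIEN1 (0.914). PHF1, a chromatin reader of the Polycomb system, was lowest with GNF-7 at 6 h, at 37.4 ± 1.25 CPM (SD, n = 3), and highest at 24 h, at 50.5 ± 1.43 CPM in vehicle and 51.4 ± 0.712 CPM with GNF-7. SMO, the signal transducer of the Hedgehog pathway, was at 21.7 ± 0.944 CPM with GNF-7 at 6 h and 34.1 ± 1.89 CPM at 24 h. The closest to TRIB1 were VGLL4 (0.873), RUSC2 (0.867), AP5B1 (0.851), KLC2 (0.847) and PHKA2 (0.833), a weaker likeness than for the other members. VGLL4, a cofactor that opposes YAP at TEAD factors, was at 58.3 ± 0.551 CPM with GNF-7 at 6 h and 69.0 ± 0.703 CPM in vehicle at 6 h. No gene was among the 5 closest to more than 1 member.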

How the data were processed

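Poly(A) libraries of HT-1080 cells were sequenced, and the authors deposited a table of unnormalized read counts for Ensembl genes. The kit was a stranded mRNA kit, per the labels' protocols. The submitters' processing notes name bcl2fastq 2.20.0.422, STAR 2.7.9a, featureCounts 1.5.1 and GRCh38. The counting strand setting and annotation release are not given in the sources used here, so values of overlapping genes (50 of 85 list genes) are uncertain. Of 60673 lines, 3 that form 1 broken entry were left out. Of 60670 identifiers, 60400 (99.55%) had a symbol.

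Counts were tested with edgeR 4.0.16 (R 4.3.3, robust quasi-likelihood, filterByExpr, TMM) in 1 fit over 15 libraries with a term per group, which tested 18563 genes, all 3 members among them. Benjamini-Hochberg adjustment ran over every gene tested, and calls needed an adjusted p under 0.05. SD is over 3 libraries, and the SE is the log2 fold change over the root of F. Per-kilobase levels use the union of GENCODE 29 exons. The edgeR p-values set each group difference against the spread between these libraries, estimated over the 5 groups and moderated across genes. No pair of libraries of the same group agreed within sampling noise, and pairs from different groups were not compared in this way. The labels do not say what replicate numbers share. Between GNF-7 at 6 h and at 24 h, same-numbered libraries deviated together, with correlations of 0.126 to 0.254. Between vehicle and GNF-7 at 24 h the correlations were 0.110 to 0.154. In no other pair of groups compared were all same-numbered correlations over 0.1. The SE and p given for every comparison come from the fit without a term for the numbers. Pairing by number entered only the replicate block, an alternative fit over all 15 libraries.

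The members and 7 lists were chosen with earlier results of these data known. Named list genes were ATF4, DDIT3, COP1, EIF2AK4 and, per list, those with the 3 smallest p in each of the first 3 comparisons, and not all are printed. Some genes are not reported here. Alternatives were RLE factors, total counts, other filters, DESeq2 1.42.0, limma voom 3.58.1, fits of the groups compared, a replicate block, no mitochondrial genes and leaving out each library. In simulated counts for GNF-7 against vehicle at 6 h (17945 genes), edgeR recovered 188 of 200 genes changed 2-fold with 5 false calls. In the deposited counts 39.3% of genes were called in this comparison, and the number of false calls with so large a share was not tested.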

Additional observations from a re-analysis of the deposited data

Results flagged for a closer look

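Each Tribbles gene responded to GNF-7 more positively at 24 h than at 6 h by an interaction term in the edgeR fit (adjusted p 3.36e-09 for TRIB1, 4.09e-08 for TRIB2 and 1.84e-06 for TRIB3), by 0.84 on the log2 scale for TRIB1, 0.78 for TRIB2 and 0.38 for TRIB3. Leaving out each of the 12 senescent libraries in turn gave 0.77 to 0.90 for TRIB1, 0.70 to 0.90 for TRIB2 and 0.33 to 0.41 for TRIB3. The vehicle groups themselves differed between the times, TRIB1 by -0.31 and TRIB2 by 0.31.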

How the results depend on the processing

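Of 21 results for the members, 16 kept their direction and their call under every alternative run. The other 5 were as follows. With total counts, TRIB1 was called for GNF-7 at 24 h (0.18) and TRIB3 in vehicle over time (-0.18), and against cycling cells the calls for GNF-7 at 6 h were lost for TRIB1 (-0.063) and TRIB2 (-0.11). When genes were filtered at a mean of 5 CPM, TRIB1 was called at 24 h (0.25) and the calls against cycling cells were lost (TRIB1 -0.0045, TRIB2 -0.051), and a fit of only those groups lost the TRIB1 call (-0.17). TRIB2 at 24 h was negative without a filter (-0.011). Over the fits that left out 1 library, TRIB1 at 24 h ranged from 0.11 to 0.22, TRIB2 at 24 h from -0.020 to 0.034, and against cycling cells TRIB1 ranged from -0.24 to -0.19 and TRIB2 from -0.37 to -0.18. TRIB2 at 24 h was negative when replicate 2 of vehicle (-0.020), replicate 2 of GNF-7 (just below 0) or replicate 3 of GNF-7 (-0.0033) at that time was left out. The TRIB3 share differed by -21.6, 37.4 and 35.9 percentage points with the longest transcript as length and by -24.2, 45.5 and 43.2 points with raw reads, for senescence, 6 h and 24 h. EIF2AK4 at 6 h was positive under the 5 CPM filter (0.025) and ranged from -0.058 to 0.014 over the fits that left out 1 library, positive when replicate 2 of GNF-7 was left out. Of 98 counts of list genes called, 36 moved under at least 1 alternative, by 1.5 times or more or from or to 0. For small counts a single gene can make such a move. Apart from the scaling shifts given above, the causes were not tested.

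The replicate block changed no call for the members, with TRIB3 at 2.80 and 3.18 for GNF-7 at 6 h and 24 h. It gave 7481 called genes at 6 h in place of 7286. In the comparisons where all same-numbered libraries correlated over 0.1, the block gave 0.15, 0.014 and 3.18 for TRIB1, TRIB2 and TRIB3 with GNF-7 against vehicle at 24 h, and 0.53, 1.09 and 0.31 between the GNF-7 times. Over all groups, 12 of 30 same-numbered pairs correlated above 0.1 (-0.14 to 0.25), and 7 of 15 libraries correlated best with their own number.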
